A study of Glycine max with 6 samples.

Results

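Phenylalanine ammonia-lyase (PAL) removes ammonia from phenylalanine to give cinnamic acid, the first committed step from primary metabolism into the phenylpropanoids. The products downstream include lignin of woody cell walls, flavonoids, the isoflavonoids for which legumes are known, and soluble phenolics. Plants carry PAL as a small gene family whose copies differ in the tissues and stresses in which they are transcribed. The genes described here are the 8 soybean genes that carry the PAL activity term together with the terms for cinnamic acid synthesis and ammonia-lyase activity, out of 45967 genes in the deposited table. They were chosen by identifier and annotation, with earlier results of these data known. All 8 were present and all 8 passed the filter on low counts, as did 39203 genes in all.

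The RNA came from leaves of Glycine max cultivar HN95, tagged wild type. Every plant grew under saline-alkaline stress, from 3 L of a sodium salt solution in pots with 20 kg of soil (NaCl and Na2CO3 at 40 mM each, NaHCO3 and Na2SO4 at 320 mM each), so the controls were stressed plants too. The 3 control libraries were compared with 3 libraries from plants whose leaves had received mesoporous silica nanoparticles (MSN), silica particles pierced by nanometre-wide pores, at 20 mg/L, sampled 7 days after the spray; the treatment tags of the MSN libraries read 20, 21 and 22 mg/L, although the titles name a single treated group. Whether control leaves received a mock spray, the age of the plants, and whether replicates came from separate plants or pots are not stated in the labels, which call the libraries biological replicates. The p-values cover the spread between these libraries.

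Library totals ran from 63981150 to 67923813 counts. Leaf identity was plain in both groups: genes for light harvesting and Rubisco activity summed to 13910 to 14480 FPKM (fragments per kilobase of transcript and per 1000000 fragments) in control and 27740 to 28680 FPKM in MSN, with none of the 45 at 0. Of all genes tested, 59.3% passed an adjusted p of 0.05 (edgeR quasi-likelihood test, 29.6% higher and 29.7% lower in MSN), and 65.0% had groups that did not overlap. Counts of PAL genes are read against these shares. Whole leaves were sequenced, so fewer cells of a type and less RNA per cell cannot be told apart.

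The 2 most abundant PAL genes moved in opposite directions. GLYMA_10G058200 rose 1.48-fold in MSN leaves while GLYMA_13G145000 fell to 0.655 of its control level, and the next in abundance, GLYMA_19G182300, fell to 0.479. The low genes GLYMA_20G180800 and GLYMA_02G309300 rose 1.85-fold and 2.07-fold. The other 3 genes did not pass the threshold. In all, 3 of 8 rose and 2 of 8 fell, so 5 of 8 were called, a share close to the 59.3% of all tested genes. The median log2 fold change of the 8 was -0.01, and that of all tested genes was 0.01. The summed level of the family lay between 245 and 252 FPKM in control and between 255 and 269 FPKM in MSN.

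**Figure D1:**
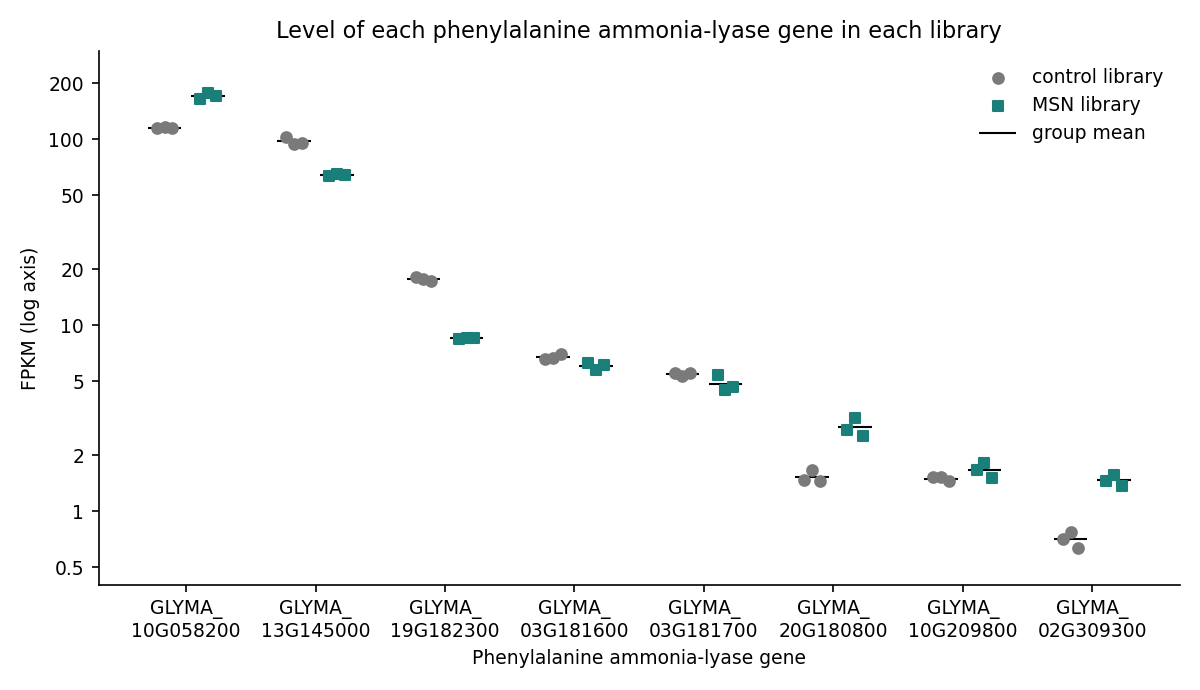
FPKM of each PAL gene (log axis) in the 3 control libraries (grey circles) and the 3 MSN libraries (green squares), with group means as bars. GLYMA_10G058200 is higher and GLYMA_13G145000 and GLYMA_19G182300 are lower in every MSN library than in any control library.

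The copies lie on 6 chromosomes, at positions given here as in the deposited table, whose genome build no header or label names. GLYMA_10G058200 is on chromosome 10 at 5328963 to 5333501 and GLYMA_13G145000 on chromosome 13 at 25758490 to 25763596, both on the minus strand. GLYMA_19G182300 is on chromosome 19 at 44118211 to 44122192, plus strand. GLYMA_03G181600 (39351927 to 39355288) and GLYMA_03G181700 (39362677 to 39366612) stand side by side on the plus strand of chromosome 3, with 7388 bases between them and no other gene of the table in the gap. GLYMA_20G180800 is on chromosome 20 at 41891638 to 41898451, plus strand. GLYMA_10G209800 is on chromosome 10 at 44173311 to 44179454, minus strand, and GLYMA_02G309300 on chromosome 2 at 48287101 to 48289732, plus strand. No gene of the table overlaps any of the 8. The transcript length implied by each gene's counts and FPKM ran from 2628 bases for GLYMA_02G309300 to 3535 bases for GLYMA_20G180800.

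The RefSeq gene table of soybean (Glycine_max_v4.0) also lists 8 genes with PAL symbols. Its 3 PAL1 genes are on chromosomes 3, 3 and 19, its 4 PAL2 genes on chromosomes 10, 10, 13 and 20, and its single PAL3 gene on chromosome 2. These are the chromosomes of the 8 genes described here, in the same numbers. The RefSeq table holds none of the GLYMA identifiers, so no symbol is given to a single gene. The KEGG orthology entry for PAL is attached to only 2 of the 8 in the deposited table, GLYMA_20G180800 and GLYMA_02G309300. A KEGG pathway list therefore leaves out all but these 2 copies, and with them the 5 most abundant and GLYMA_10G209800 are missing.

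GLYMA_10G058200 was the highest PAL gene in both groups, at 116, 116 and 115 FPKM in the control libraries and 165, 179 and 171 FPKM in the MSN libraries. The lowest MSN library stood well above the highest control library, and the coefficient of variation among control libraries was 0.368%. Counts were 21643 to 22600 in control and 30588 to 34689 in MSN. The log2 fold change was 0.56 (SE 0.03, 95% interval 0.49 to 0.64; edgeR adjusted p = 6.89e-11). By mean FPKM the gene stood at place 406 in the table in control and at place 223 in MSN.

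GLYMA_13G145000 was second in both groups, at 103, 94.8 and 96.0 FPKM in control and 63.4, 65.1 and 64.2 FPKM in MSN. Control replicate 1 was the highest of its group, and all 3 control libraries lay above all 3 MSN libraries. Counts fell from 18024 to 18971 in control to 11608 to 12494 in MSN. The log2 fold change was -0.61 (SE 0.04, 95% interval -0.69 to -0.53; edgeR adjusted p = 1.09e-10), and its place in the table by mean FPKM went from 544 to 1096.

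The ratio of these 2 copies gives the shift within each library. GLYMA_10G058200 was 1.13, 1.23 and 1.20 times GLYMA_13G145000 by FPKM in the control libraries and 2.61, 2.75 and 2.66 times in the MSN libraries. The mean ratio was 1.19 ± 0.0509 in control and 2.67 ± 0.0710 in MSN (SD, n = 3), with no overlap (2-sided exact permutation test over the 6 libraries, p = 0.1, the smallest that 3 against 3 can give). The near-equal pair of control leaves thus became an unequal pair in MSN leaves. Their joint level was 214 ± 4.1 FPKM in control and 236 ± 7.6 FPKM in MSN (SD, n = 3), higher in every MSN library (229 to 244 FPKM) than in any control library (211 to 218 FPKM; 2-sided exact permutation test, p = 0.1, again the smallest possible).

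GLYMA_19G182300 was the next in order, at 18.1, 17.8 and 17.4 FPKM in control and 8.49, 8.58 and 8.52 FPKM in MSN. The MSN libraries were tightly grouped, with a coefficient of variation of 0.529%, and lay far from the control libraries. The log2 fold change was -1.06 (SE 0.05, 95% interval -1.17 to -0.95; edgeR adjusted p = 2.52e-12), the smallest adjusted p of the family. Its place in the table by mean FPKM went from 6325 to 12769.

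Neither gene of the adjacent pair on chromosome 3 passed the edgeR threshold. GLYMA_03G181600 had 6.56, 6.72 and 7.01 FPKM in control and 6.28, 5.78 and 6.10 FPKM in MSN, groups that did not overlap but lay close. Its log2 fold change was -0.16 (95% interval -0.31 to -0.02, unadjusted for the number of genes; edgeR adjusted p = 0.0525). GLYMA_03G181700 had 5.58, 5.34 and 5.58 FPKM in control and 5.40, 4.49 and 4.68 FPKM in MSN, with MSN replicate 1 inside the control range. Its log2 fold change was -0.18 (95% interval -0.36 to -0.00486; edgeR adjusted p = 0.0719), and -0.27 without MSN replicate 1 (edgeR adjusted p = 0.0217). DESeq2 called both genes lower, with adjusted p = 0.0279 and 0.0428, so the edgeR and DESeq2 counts of falling PAL genes are 2 and 4. GLYMA_03G181600 was 1.18, 1.26 and 1.26 times its neighbour by FPKM in control and 1.16, 1.29 and 1.30 times in MSN, ranges that overlapped.

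Of the 3 lowest copies, 2 rose. GLYMA_20G180800 had 1.47, 1.66 and 1.45 FPKM in control and 2.75, 3.19 and 2.55 FPKM in MSN, without overlap (log2 fold change 0.88, SE 0.12, 95% interval 0.63 to 1.14; edgeR adjusted p = 5.51e-06). GLYMA_02G309300, the lowest in both groups, had 0.710, 0.774 and 0.634 FPKM in control and 1.46, 1.56 and 1.37 FPKM in MSN, also without overlap. Its log2 fold change was 1.05 (SE 0.17, 95% interval 0.70 to 1.40; edgeR adjusted p = 2.46e-05). These rises rest on 340 to 399 against 578 to 765 counts for GLYMA_20G180800, and on 111 to 138 against 231 to 278 counts for GLYMA_02G309300, and their standard errors are several times those of the abundant copies.

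GLYMA_10G209800 had 1.53, 1.52 and 1.45 FPKM in control and 1.66, 1.82 and 1.51 FPKM in MSN. MSN replicate 3 lay inside the control range, and the groups overlapped. The log2 fold change was 0.14 (95% interval -0.14 to 0.42; edgeR adjusted p = 0.369), an interval that still allows a rise of up to 0.42 on the log2 scale. Past a log2 fold change of 1 in size, 2 of the 8 genes were called, GLYMA_19G182300 down and GLYMA_02G309300 up, where 16.3% of all tested genes were. Groups did not overlap in 6 of 8 genes, beside the 65.0% of all tested genes.

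**Figure D2:**
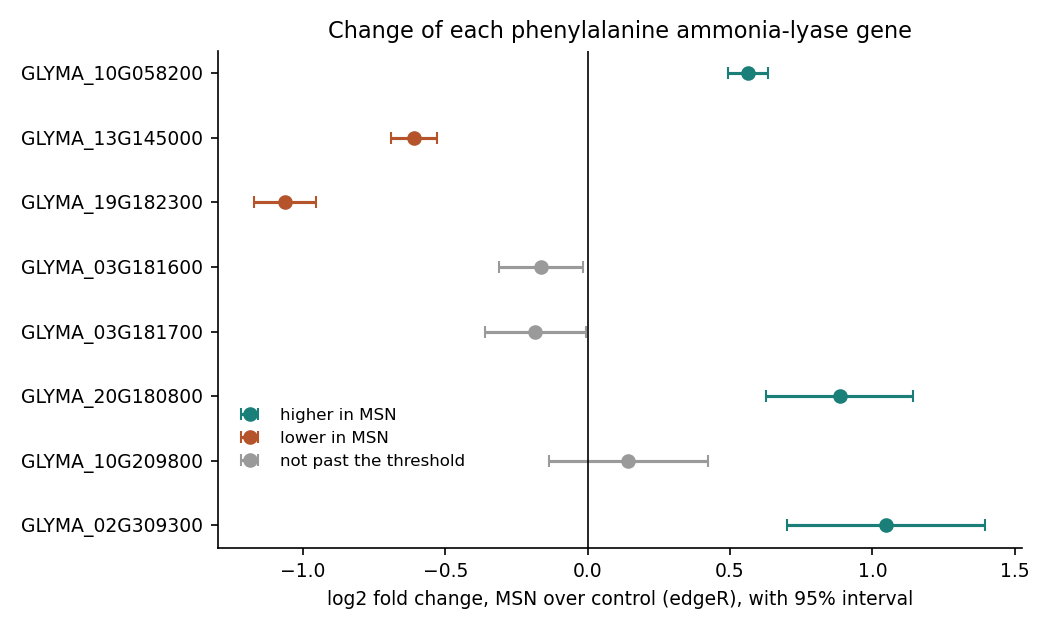
log2 fold change of each PAL gene, MSN over control, from the edgeR fit, with 95% intervals not adjusted for the number of genes (bars). Genes run from the most to the least abundant; GLYMA_10G058200, GLYMA_20G180800 and GLYMA_02G309300 lie right of 0, GLYMA_13G145000 and GLYMA_19G182300 left of it, and the 3 grey genes did not pass the threshold.

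The order of the copies by FPKM was the same in both groups. In control, GLYMA_20G180800 and GLYMA_10G209800 did not differ beyond their spread (1.53 and 1.50 FPKM), and every other pair of neighbours in the order had separate ranges. In MSN, GLYMA_20G180800 (2.83 FPKM) had moved clear of GLYMA_10G209800 (1.66 FPKM), and GLYMA_02G309300 (1.47 FPKM) had drawn level with the latter, with overlapping ranges. The gap between GLYMA_19G182300 and GLYMA_03G181600 narrowed from 2.63-fold to 1.41-fold.

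As a share of the summed family FPKM, GLYMA_10G058200 went from 46.9 ± 0.840% in control to 65.7 ± 0.752% in MSN (SD, n = 3). GLYMA_13G145000 went from 39.5 ± 1.01% to 24.6 ± 0.381% and GLYMA_19G182300 from 7.18 ± 0.0743% to 3.27 ± 0.0738%. GLYMA_10G058200 thus gained 18.8 percentage points, where GLYMA_13G145000 changed by -14.9 and GLYMA_19G182300 by -3.91. The remaining 5 copies each held at most 2.86% in any library. For 7 of the 8 shares a 2-sided exact permutation test gave p = 0.1, the smallest that 3 against 3 libraries can give (0.114 adjusted over the 8 shares). The share of GLYMA_10G209800 was 0.607% in control and 0.636% in MSN (exact permutation test, p = 0.4). The 8 shares are not separate results, because within a library a gain by any copy lowers the shares of the rest. The 7 include GLYMA_03G181600 and GLYMA_03G181700, which did not pass the edgeR threshold themselves.

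**Figure D3:**
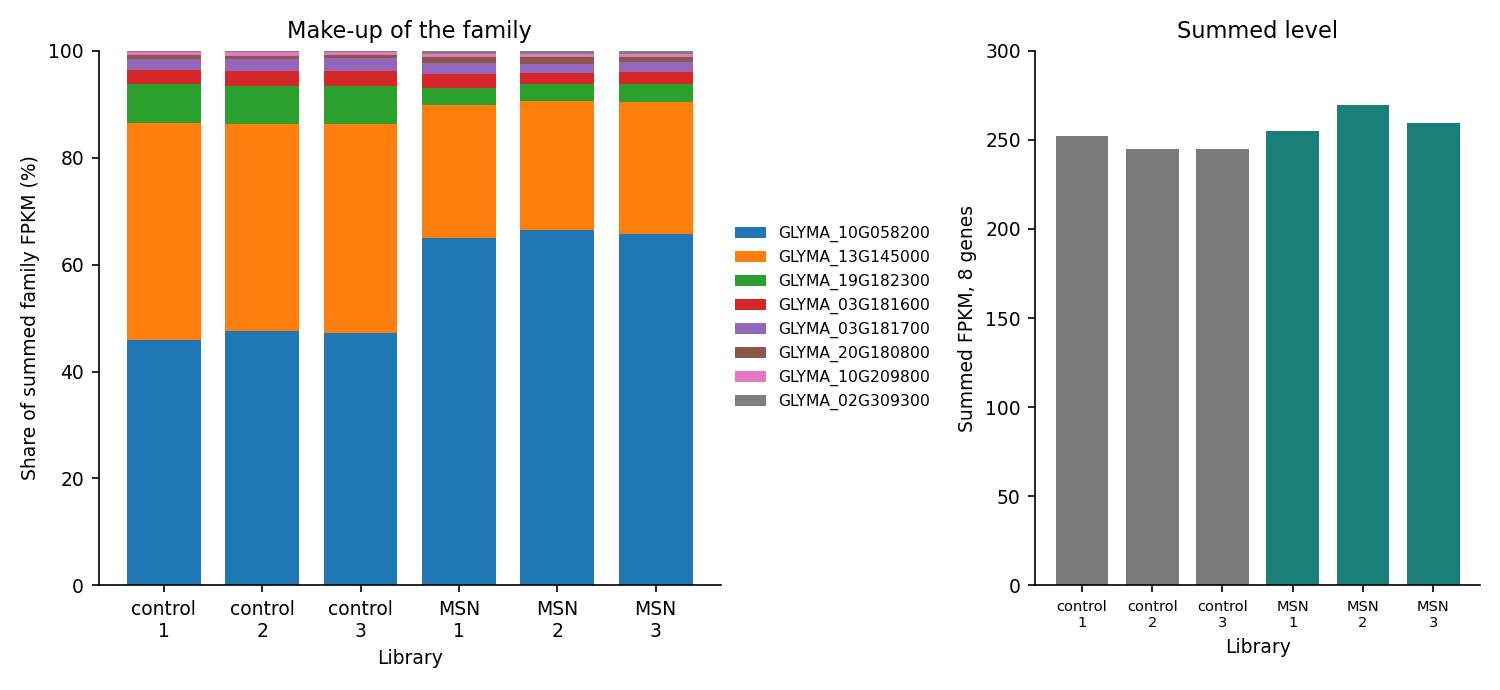
Left, share of the summed family FPKM held by each of the 8 PAL genes in each library, in percent; right, the summed FPKM in each library, from an axis at 0. The make-up is alike within groups and differs between them. The summed level lies between 245 and 252 FPKM in control and between 255 and 269 FPKM in MSN.

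The summed level was 252, 245 and 245 FPKM in control and 255, 269 and 260 FPKM in MSN, or 247 ± 4.29 and 261 ± 7.33 FPKM (SD, n = 3). The lowest MSN library lay just above the highest control library, and the ratio of the means was 1.06. The family took 0.0695 to 0.0712% of all counts in control and 0.0724 to 0.0766% in MSN. By chromosome the sums differed in direction. The 3 copies on chromosomes 3 and 19 summed to 29.8 to 30.3 FPKM in control and 18.9 to 20.2 FPKM in MSN, and the 4 copies on chromosomes 10, 13 and 20 to 214 to 221 FPKM in control and 233 to 249 FPKM in MSN. In the second set, GLYMA_10G058200 and GLYMA_13G145000 moved against each other. GLYMA_13G145000 was the only copy of that set with a negative log2 fold change, and GLYMA_10G209800 (0.14) was not called. On chromosomes 3 and 19 all 3 copies had negative values, but the chromosome 3 pair was not called. Whether chromosome set and direction go together was not tested.

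A further 2 genes carry the PAL activity term but not the terms for cinnamic acid synthesis or ammonia-lyase activity. GLYMA_05G234900 and GLYMA_08G042400 are annotated as histidine-tRNA ligases, which charge transfer RNA for protein synthesis, and they are not counted in the family. Their levels were 10.1 ± 0.164 and 9.35 ± 0.545 FPKM for GLYMA_05G234900 (log2 fold change -0.11, edgeR adjusted p = 0.106; -0.15 and adjusted p = 0.0432 without MSN replicate 1) and 9.38 ± 0.434 and 7.93 ± 0.258 FPKM for GLYMA_08G042400 (log2 fold change -0.25, edgeR adjusted p = 0.00194), each in control and then in MSN (SD, n = 3).

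Phenylalanine, the substrate of PAL, comes from the shikimate pathway. In the KEGG list for phenylalanine, tyrosine and tryptophan synthesis, 21 of 47 tested genes were higher in MSN and 12 lower (median log2 fold change 0.21). The called share was 70.2%, beside the 59.3% of all tested genes. Of 8 genes for prephenate or arogenate dehydratase, the last steps to phenylalanine, 2 were higher and 5 lower, and the most abundant, GLYMA_12G193000, fell from 34.4 ± 1.08 to 25.9 ± 0.161 FPKM (SD, n = 3; log2 fold change -0.41, edgeR adjusted p = 2.48e-07). The called share of this short list was 87.5%. Of 10 genes for chorismate mutase, which makes prephenate, 2 were higher and the other 8 did not pass; the count was 1 without MSN replicate 3 or control replicate 1, and 4 with upper quartile scaling. Its most abundant gene, GLYMA_19G027100, was at 12.1 ± 0.615 and 13.4 ± 0.927 FPKM (SD, n = 3; log2 fold change 0.15, edgeR adjusted p = 0.0852), and was called higher with upper quartile scaling (adjusted p = 0.0279), with a filter of at least 10 CPM (counts per 1000000) in 3 libraries (0.0184) and without MSN replicate 2 (0.0304). Upper quartile scaling and the 10 CPM filter moved log2 fold changes over all genes by medians of 0.04 and 0.05. In KEGG phenylalanine metabolism, with the PAL genes left out, 11 of 22 were higher and 4 lower, a called share of 68.2%.

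Downstream of PAL, 57 of 165 other genes of KEGG phenylpropanoid biosynthesis were higher and 72 lower, a called share of 78.2% beside 59.3% of all tested genes (median log2 fold change -0.16). Single steps were counted by KEGG orthology entry, lists added after the annotation was seen, and by activity term where the table has one. For trans-cinnamate 4-monooxygenase, which hydroxylates the cinnamic acid made by PAL, 1 of 3 genes was lower, GLYMA_14G205200 (11.8 to 9.95 FPKM), the only gene with the activity term. The most abundant of the 3, GLYMA_02G236500, was at 30.4 ± 1.54 FPKM in control and 32.3 ± 1.70 FPKM in MSN (SD, n = 3; log2 fold change 0.09, edgeR adjusted p = 0.160), but was called higher with upper quartile scaling (0.13, adjusted p = 0.0331) and with the 10 CPM filter (0.14, adjusted p = 0.0112). These 2 settings moved log2 fold changes over all genes by medians of 0.04 and 0.05. For 4-coumarate-CoA ligase, which activates the acids, 2 of 8 were higher and 6 lower, with GLYMA_11G194500 falling from 19.3 to 10.3 FPKM. By activity term 2 of 4 were higher and 2 lower, with GLYMA_17G064600 falling from 16.4 to 5.93 FPKM; 1 was higher without MSN replicate 2, MSN replicate 3 or control replicate 2.

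The enzymes of lignin precursors did not all go one way. Their counts stand beside 59.3% of all tested genes called, 29.6% higher and 29.7% lower, and the lists of 4 genes are short. All 4 tested genes of cinnamoyl-CoA reductase, all 4 of caffeic acid 3-O-methyltransferase and all 4 of cinnamyl-alcohol dehydrogenase were lower in MSN, with medians of -1.13, -2.39 and -0.89 on the log2 scale. Their most abundant genes fell from 24.2 to 13.4 FPKM (GLYMA_15G003600), from 32.8 to 15.8 FPKM (GLYMA_06G137300) and from 24.1 to 9.18 FPKM (GLYMA_10G262400). By activity term, cinnamyl-alcohol dehydrogenase had 4 of 6 lower and the other 2 not called, led by GLYMA_14G221200, which fell from 221 ± 5.43 to 45.1 ± 2.72 FPKM (SD, n = 3; log2 fold change -2.30, edgeR adjusted p = 7.75e-18). Caffeoyl-CoA O-methyltransferase had 4 of 7 genes lower and 2 higher, and its most abundant gene, GLYMA_17G171100, fell from 348 ± 6.50 to 264 ± 0.851 FPKM (SD, n = 3; log2 fold change -0.40, edgeR adjusted p = 2.53e-09). Only 1 was higher without MSN replicate 3, control replicate 1 or control replicate 3. The same held with the 10 CPM filter, no low-count filter, counts divided by 4, the replicate block and both limma fits. Peroxidases, which join lignin units among other roles, had 20 of 52 higher and 23 lower, a called share of 82.7%. The most abundant, GLYMA_07G260300, rose from 71.4 to 105 FPKM. Shikimate O-hydroxycinnamoyltransferase, which makes the esters on the way to caffeic units, had 9 of 18 genes higher and 3 lower, a called share of 66.7%. GLYMA_16G150600 rose from 2.58 to 11.1 FPKM.

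In the whole KEGG phenylpropanoid list, the largest falls among genes of at least 10 CPM were GLYMA_04G227700, an O-methyltransferase gene (28.8 to 2.41 FPKM), and GLYMA_18G211000, a peroxidase gene (26.9 to 3.09 FPKM). The largest rises were GLYMA_09G178100, a beta-glucosidase gene (2.96 to 13.2 FPKM), and GLYMA_16G150600. In the flavonoid branch, chalcone synthase, its first enzyme, had 5 of 11 genes higher and 1 lower by KEGG orthology entry and 9 of 17 higher and 2 lower by activity term, called shares of 54.5% and 64.7% beside the 59.3% of all tested genes. GLYMA_19G105100, the most abundant in both lists, rose from 58.7 ± 0.114 to 122 ± 3.16 FPKM (SD, n = 3; log2 fold change 1.05, edgeR adjusted p = 3.73e-14). Chalcone isomerase, the next step, had 2 of 4 higher and 1 lower, with GLYMA_20G241500 rising from 25.6 to 33.7 FPKM. By DESeq2, both limma fits, counts divided by 4, the replicate block or without MSN replicate 1, 2 were lower. None was lower without control replicate 3 or with the 10 CPM filter, which left 1 higher. KEGG flavonoid biosynthesis had 25 of 59 higher and 15 lower (median 0.39), a called share of 67.8%. Of its 67 genes, 35 were also in the phenylpropanoid list. Isoflavonoid biosynthesis had 7 of 21 higher and 8 lower, a called share of 71.4%.

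**Figure D4:**
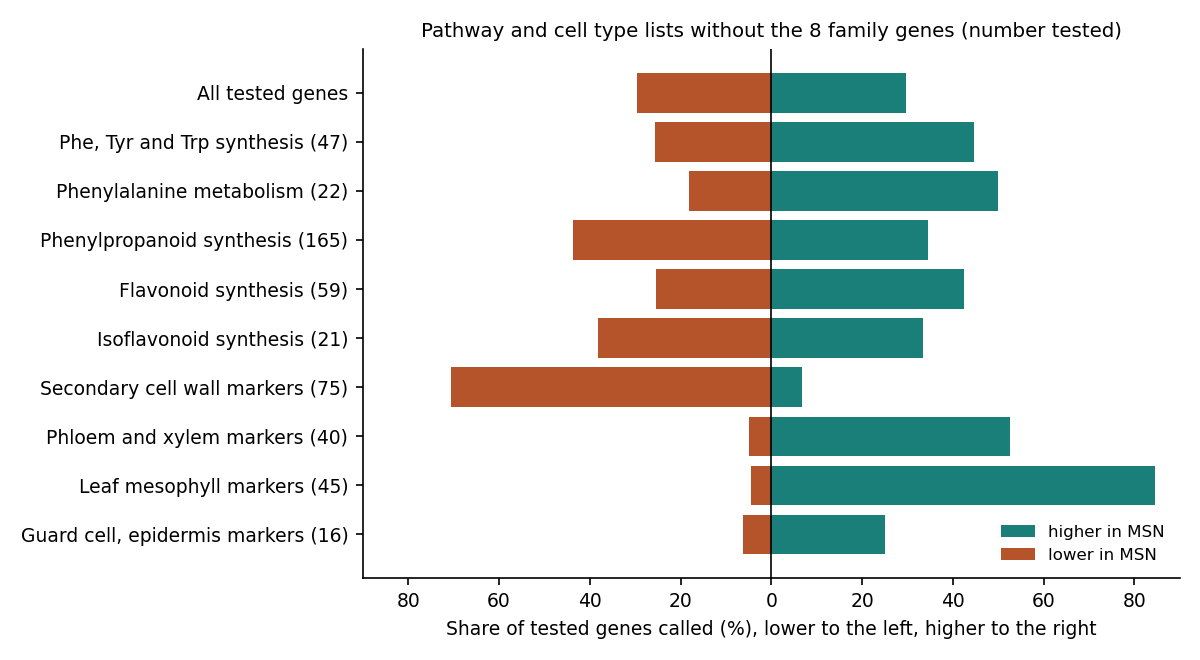
Share of tested genes called higher (right) or lower (left) in MSN, in percent, for all tested genes and for pathway and cell type lists without the 8 PAL genes; the number tested is in brackets. Secondary cell wall markers stand out to the left (53 of 75 lower), and leaf mesophyll markers (38 of 45 higher) and phloem and xylem markers (21 of 40 higher) to the right.

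Cell type markers differed in direction between lists. The light harvesting and Rubisco genes, which mark leaf mesophyll, had 38 of 45 higher and 2 lower, a called share of 88.9% (median log2 fold change 0.51), and their summed level, given above, was higher in every MSN library. The 2 lower calls were 3 without MSN replicate 3. PAL is known to be active in lignifying vascular tissue and in epidermis. Genes of secondary cell wall biogenesis, the lignified walls of xylem and fibres, had 53 of 75 lower and 5 higher. Their called share was 77.3% and their median log2 fold change -1.02. The summed level of the list was 479 to 493 FPKM in control and 269 to 282 FPKM in MSN, and of its 90 genes, 2 were at 0 in all control libraries and 14 in all MSN libraries. Markers of phloem and xylem development had 21 of 40 higher and 2 lower, a called share of 57.5% beside the 59.3% of all tested genes. Their summed level was 63.7 to 66.2 FPKM in control and 89.3 to 97.3 FPKM in MSN. Of the 47 genes, 2 were at 0 in control and 0 in MSN. The 2 lower calls were 1 in all but 1 of the fits that left out a single library (the exception was without MSN replicate 1). Guard cell and epidermis markers had 4 of 16 higher and 1 lower, a called share of 31.2%, at 24.9 to 28.0 FPKM in control and 25.8 to 27.4 FPKM in MSN, ranges that overlapped, with 6 of 30 at 0 in control and 1 in MSN. That list had 2 higher without MSN replicate 2, and 2 lower without MSN replicate 1, MSN replicate 3 or control replicate 2. The part of these tissues in the PAL results was not tested.

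For the 2 leading copies, the genes closest in pattern were sought among 19887 genes of at least 10 CPM, by the root mean square difference of log2(CPM + 1) after centring each gene on its mean over the 6 libraries. Closest to GLYMA_10G058200 were GLYMA_04G086500, a tryptophan-tRNA ligase gene (0.00994), GLYMA_16G196900, annotated to calmodulin binding (0.0111), and GLYMA_15G185800, a thioesterase gene of phylloquinone synthesis (0.0169). Closest to GLYMA_13G145000 were GLYMA_17G105600, which has no annotated term (0.0108), GLYMA_11G148900, a glycerol-3-phosphate dehydrogenase gene (0.0134), and GLYMA_08G154900, a mitochondrial ADP and ATP carrier gene (0.0145). With 2 groups, this measure mainly finds genes of like fold change. In the order named, log2 fold changes were 0.59, 0.57 and 0.58 beside 0.56 for GLYMA_10G058200. They were -0.62, -0.65 and -0.62 beside -0.61 for GLYMA_13G145000. Shared regulation was not tested.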

How the data were processed

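The deposited table gives, per the file headers, a count and an FPKM value per gene and library. The FPKM values were scaled by transcript length and library size by the authors. The counts were used as deposited, and the headers do not say whether they had been scaled. The submitters' processing notes list DESeq2 1.34.0 and R 4.1.2. Not given in the sources used here are aligner, counter, strand setting, genome build and annotation, nor how reads shared between close PAL copies were assigned, so levels of near-identical copies are uncertain. Gene names and terms are those of the table.

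The test was the 2-sided quasi-likelihood test of edgeR 4.0.16 (R 4.3.3), after TMM scaling and filterByExpr, and p-values were adjusted by Benjamini-Hochberg over 39203 genes. On simulated data for this comparison (38593 genes), 93% of 1.5-fold and 99% of 2-fold changes were recovered, and 6 unchanged genes were called. The simulation changed 100 genes at each fold, all above a minimum control count, with the same spread set for every gene. It therefore does not give recovery for genes of low counts or weaker changes, or where most genes change. Shares and ratios used exact permutation tests (scipy 1.17.1). Alternatives used DESeq2 1.42.0 and limma 3.58.1 (log2 FPKM with pseudocounts of 1 and 0.1).

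The 8 genes and all lists were chosen with earlier results of these data known. Named outside the family are the most abundant gene of an enzyme step, the 2 largest rises and falls of the phenylpropanoid list with groups apart, and the 3 genes closest in pattern to each of the 2 highest copies. Of counts between 1 and 12, 17.7 to 19.0% per library were exactly 4, so 1 counting event may be several counts, and the depth behind low genes may be less than it looks.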

Additional observations from a re-analysis of the deposited data

How the results depend on the processing

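The directions of all 8 PAL genes were the same in each of the 15 other fits that tested them, and the 5 calls stood in each fit that tested the gene. A filter of at least 10 CPM in 3 libraries removed the 3 lowest copies, leaving 1 PAL gene higher; over all genes it gave 7528 higher and 7516 lower, in KEGG phenylpropanoid biosynthesis 25 and 44, in flavonoid biosynthesis 9 higher and in isoflavonoid biosynthesis 4 lower. It tests fewer genes by construction. DESeq2's Wald test called 4 PAL genes lower, adding GLYMA_03G181600 (-0.17, adjusted p = 0.0279) and GLYMA_03G181700 (-0.19, adjusted p = 0.0428). With DESeq2 size factors in edgeR, GLYMA_03G181600 passed (-0.17, adjusted p = 0.0484). Over its alternatives the adjusted p of GLYMA_03G181600 ran from 0.0279 to 0.182, and that of GLYMA_03G181700 from 0.0217 to 0.233. The highest value for GLYMA_03G181600 came with the 10 CPM filter (log2 fold change -0.11). That filter moved log2 fold changes over all genes by a median of 0.05, and upper quartile scaling by 0.04. The cause of the differences between fits was not tested. Settings named beside the short lists are not all of those that moved their counts. Without a low-count filter, 1 chorismate mutase gene and, by activity term, 1 4-coumarate-CoA ligase gene were higher. With counts divided by 4, guard cell and epidermis markers had 2 higher and 2 lower, and 1 phloem and xylem marker was lower. Leaving out 1 library at a time gave -0.27 to -0.13 for GLYMA_03G181700. On CPM, which is not scaled by length, the share of GLYMA_19G182300 moved by -3.72 points in place of -3.91. Libraries of the same number did not deviate together (r over genes -0.0298 to 0.0393; 1 of 6 libraries was closest to its own number). With the replicate block, 11280 genes were higher and 11461 lower, and 3 PAL genes were higher and 2 lower. The standard error of the log2 fold change was 0.03 for GLYMA_10G058200 and 0.17 for GLYMA_02G309300, the copies with the most and the fewest counts, and dividing all counts by 4 still gave 3 PAL genes higher and 2 lower.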

Other observations

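Genes next to the PAL copies were looked up by position in the deposited table, and those of the 3 most abundant are given first. GLYMA_10G058200, which rose, lies between GLYMA_10G058100 and GLYMA_10G058300, which both fell, from 91.1 to 68.6 CPM (log2 fold change -0.41, edgeR adjusted p = 1.32e-07) and from 83.8 to 60.1 CPM (log2 fold change -0.48, edgeR adjusted p = 4.42e-08). The gaps are 4044 and 32320 bases. GLYMA_13G145000, which fell, lies between GLYMA_13G144900 and GLYMA_13G145100, which also fell, from 60.8 to 43.0 CPM (log2 fold change -0.50, edgeR adjusted p = 9.94e-08) and from 110 to 85.0 CPM (log2 fold change -0.37, edgeR adjusted p = 1.48e-07). The gaps there are 4725 and 29307 bases. Both neighbours of GLYMA_19G182300 were lower too: GLYMA_19G182400 fell from 5.97 to 1.84 CPM (log2 fold change -1.69, edgeR adjusted p = 8.08e-08). GLYMA_19G182200 was at 1.07 and 0.591 CPM (edgeR adjusted p = 0.0346), a call lost with the replicate block and in 4 of 6 fits that left out a library. Among these positions GLYMA_10G058200 was the only gene that rose, where 29.7% of all tested genes were lower. Around the other copies, only GLYMA_03G181500 was called, lower at 0.523 and 0.111 CPM (log2 fold change -2.21). The tested neighbours of GLYMA_20G180800 (-0.21), GLYMA_02G309300 (0.37 and -0.12) and GLYMA_10G209800 (0.11 and 0.01) were not called. Whether a copy and its neighbours change together was not tested.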
